A study of Mus musculus with 12 samples.

Results

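Macrophages grown in culture from the bone marrow of mice were compared between 2 genotypes, labelled WT (wild type) and CKO, after 24 h with interleukin-4 (IL-4, 20 ng/mL). The comparison holds 4 of the 12 RNA-seq libraries of the series, 2 labelled WT and 2 labelled CKO, all with IL-4, and was made across the 16292 genes with enough counts to test. The other 8 libraries are the same 2 genotypes without a cytokine or with interferon-gamma (IFN-γ, 100 U/mL) for 24 h, 2 libraries in each of the series' 6 groups. IRF8, a transcription factor, is named in the series' title. The labels do not spell out CKO, and they give neither the strain, age and sex of the animals nor a Cre driver. Nor do they state if both libraries of a group are separate animals or cultures, so the p-values measure the spread between these libraries, which may be technical.

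IL-4 binds a receptor that holds IL-4Rα and acts through the transcription factor STAT6. In macrophages it turns on the programme called alternative activation, known for arginase (Arg1), the chitinase-like proteins Chil3 and Chil4, Retnla and the mannose receptor Mrc1, and linked to tissue repair and parasite defence. IRF8 is a transcription factor of the interferon regulatory family that guides marrow progenitors towards monocytes and dendritic cells and away from neutrophils, and that serves as a partner of other factors on interferon-induced genes in mature macrophages.

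The libraries were made with an RNA exome kit, which enriches transcripts with probes against coding exons, so the values are levels of captured RNA. Counts per gene summed to 21287725 and 29842151 in the WT libraries with IL-4 and to 28021889 and 32626864 in the CKO libraries. Levels are given as CPM, counts divided by the TMM-scaled size of the library. The 4 libraries are called WT1, WT2, CKO1 and CKO2 after their labels, and values are given in that order. Between the 2 WT libraries the median gene differed by 0.107 on the log2 scale, and between the 2 CKO libraries by 0.202. Mitochondrially encoded genes took 3.1 to 3.25% of counts in these 4 libraries. One library outside the comparison stood apart, the first CKO library without cytokine, at 1.52%. It enters the IL-4 comparison only through the spread that all 12 libraries share, but it is 1 of the 2 libraries behind each CKO value without cytokine, and results that rest on those values are also given without it.

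The gene in the title was checked first. Irf8 (chromosome 8, 120736358 to 120756694, plus strand, GRCm38) was at 70.9 and 65.7 CPM in the WT libraries with IL-4 and at 169 and 139 CPM in those labelled CKO. Both CKO libraries were above both WT libraries, by 1.17 ± 0.11 on the log2 scale (log2 fold change ± approximate SE, adjusted p = 0.00023). Irf8 was also higher in the libraries labelled CKO without cytokine (90.9 and 91.2 CPM in WT, 293 and 248 CPM in CKO) and after IFN-γ (513 and 502 CPM in WT, 1204 and 1173 CPM in CKO). The level of the gene thus goes against a label that names a loss of Irf8. Counts were summed over the whole gene, so the loss of 1 exon, or of the protein, would not show in them. The genotypes are therefore called by their labels throughout, and every direction below is that of the libraries labelled CKO.

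Lyz2, which encodes the macrophage lysozyme and is also the locus that carries Cre in the widely used LysM-Cre mouse, separated the labels most. It was at 7667 and 6519.8 CPM in the WT libraries and at 15 and 15.8 CPM in the CKO libraries, a log2 fold change of -8.85 ± 0.18 (adjusted p = 9.3e-11). Its neighbour and close copy Lyz1 (chromosome 10, 117287797 to 117292868; Lyz2 lies at 117277331 to 117282321) went from 189.9 and 169.9 CPM to 14.2 and 6.01 CPM, -4.16 ± 0.50 on the log2 scale (adjusted p = 0.00417). The split of reads between the copies is uncertain, since the handling of reads that match both is not given in the sources used here. The same fall of Lyz2 was measured without cytokine (-8.73) and after IFN-γ (-8.71).

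After IL-4, 482 of 16292 genes differed between the genotypes at an adjusted p under 0.05 (2.96% of genes tested), 229 higher (1.41%) and 253 lower (1.55%) in the libraries labelled CKO. Genes were tested with edgeR's quasi-likelihood method with Benjamini-Hochberg adjustment over all genes tested, fitted to all 12 libraries. Of these genes, 136 were at least 2-fold higher and 128 at least 2-fold lower, and 42 and 36 at least 4-fold. In each of the 482 the 4 libraries did not overlap between the genotypes, which also held for 7786 genes in all (47.8%). An unadjusted p under 0.05 was reached by 2304 genes. The same contrast called 2927 genes (18%) without cytokine, 1401 higher (8.6%) and 1526 lower (9.37%), or 465 higher (2.85%) and 429 lower (2.63%) without the library that stood apart. It called 2995 (18.4%) after IFN-γ, 1690 higher (10.4%) and 1305 lower (8.01%). The median gene moved by -0.01 on the log2 scale after IL-4.

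The count of calls rested on every library of the comparison. Leaving out WT1, WT2, CKO1 or CKO2 gave 157, 128, 163 and 633 calls, of which 156, 128, 159 and 346 were among the 482. Leaving out the first CKO library without cytokine, which is in no group compared, gave 671. Calls that did not hold in 1 of these fits are named with their values below, and calls of the IL-4 comparison given without such a remark were made in each of the 4 fits.

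**Figure D1:**
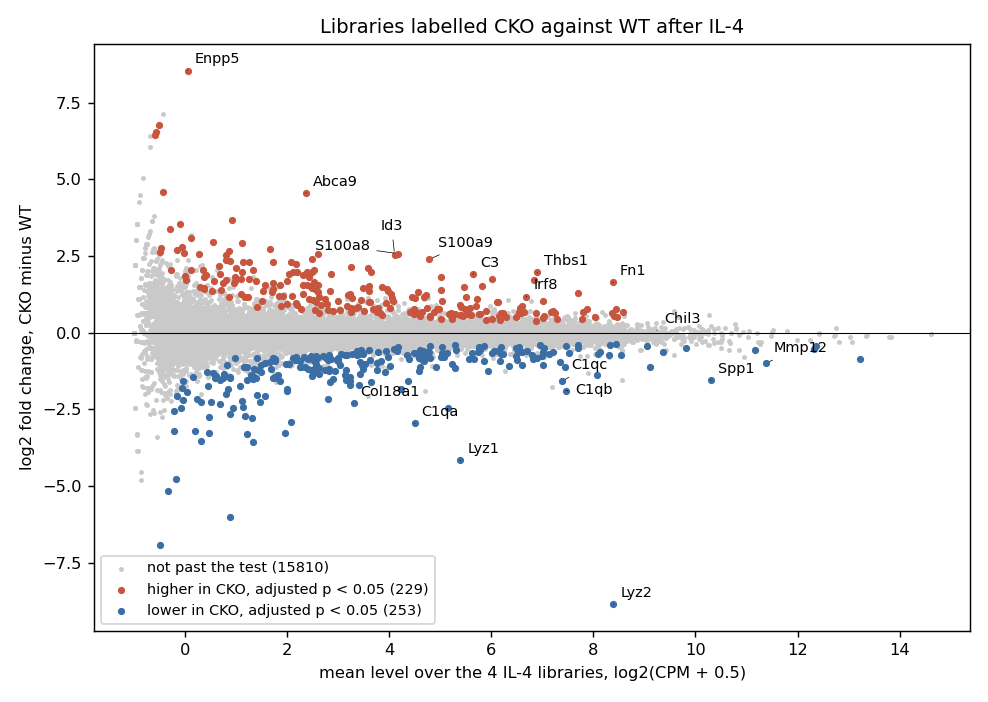
Log2 fold change after IL-4 (vertical axis, CKO minus WT) against the mean level over the 4 IL-4 libraries (horizontal axis, log2(CPM + 0.5)); each point is 1 of 16292 genes, red where higher and blue where lower at an adjusted p under 0.05. Lyz2 lies alone at -8.85, the 3 C1q genes and Spp1 are among the abundant genes that fell, and Chil3 lies near 0.

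The largest increases among well expressed genes were in granule and calcium-binding proteins of neutrophils, in the transcriptional regulator Id3 and in secreted proteins of blood plasma and matrix. By size the 12 genes named by rule were S100a8, Id3, S100a9, Ngp, Nat8l, Ltf, Thbs1, C3, Wdfy1, Fcrls, Adgre5 and Fn1. Id3, which blocks E-protein transcription factors, was at 8.35 and 5.61 CPM in WT and 43.2 and 36.9 CPM in CKO, 2.54 ± 0.17 on the log2 scale (adjusted p = 1.94e-05). Fn1, the matrix protein fibronectin, was at 219.7 and 160.4 CPM and 625 and 558 CPM, 1.64 ± 0.14 (adjusted p = 9.12e-05). For both genes the genotypes lay farther apart than the libraries of a genotype, and WT1 was well above WT2. Fcrls, an Fc receptor-like scavenger receptor known from microglia, was at 34.8 and 35 CPM and 124 and 111 CPM, 1.75 ± 0.18 (adjusted p = 0.000336). Abca9, a lipid transporter of the ABC family, lay under the level the naming rule asked for and had the larger difference, 0.82 and 0.844 CPM against 22.8 and 16.6 CPM, 4.55 ± 0.28 (adjusted p = 9.54e-06). Enpp5, a membrane phosphodiesterase, had 0 and 0 counts in WT and 48 and 56 in CKO, at least 27.7-fold higher against a floor of 3 counts over the WT group (adjusted p = 9.12e-05). Sik1, a kinase induced by cyclic AMP, was at 2.56 and 1.93 CPM and 14 and 12.3 CPM, 2.57 ± 0.22 (adjusted p = 9.83e-05).

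Other increases were carried more by CKO1 than by CKO2. Thbs1, which encodes the matrix protein thrombospondin-1, was at 66.7 and 56.9 CPM in WT and 320.3 and 163 CPM in CKO (1.97 ± 0.37, adjusted p = 0.0245). Adgre5, the adhesion receptor CD97, was at 65.5 and 63 CPM and 282 and 143 CPM (1.73 ± 0.26, adjusted p = 0.00516), and Nat8l, which makes N-acetylaspartate, at 6.32 and 5.24 CPM and 35.3 and 14.5 CPM (2.11 ± 0.41, adjusted p = 0.0239). In all of them CKO1 was well above CKO2, and both were above WT. Without WT1, WT2 or CKO1 the adjusted p was 0.134, 0.227 and 0.12 for Thbs1 and 0.138, 0.252 and 0.0989 for Nat8l. Adgre5 missed the threshold without WT1 (0.0524) and without WT2 (0.0702).

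**Figure D2:**
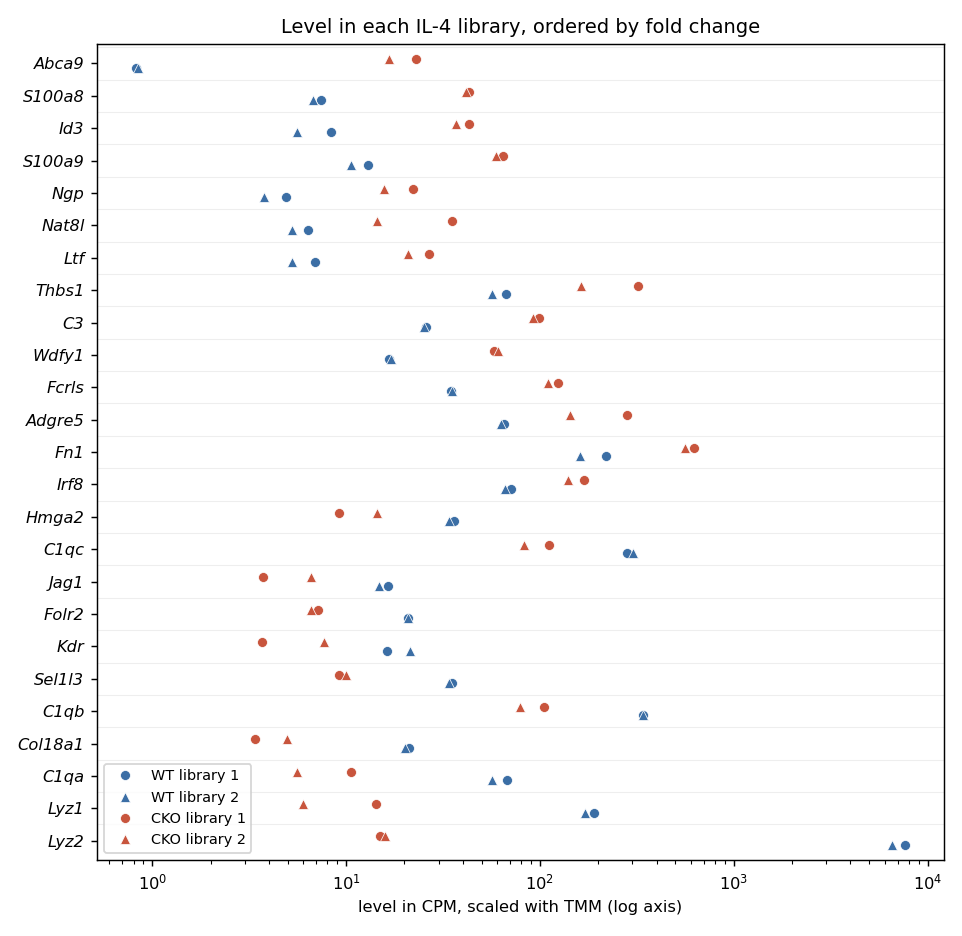
Level of 25 genes in each of the 4 IL-4 libraries in CPM (horizontal log axis), WT in blue and CKO in red, circles for library 1 and triangles for library 2, ordered by log2 fold change. The 25 were chosen from called genes, in none of which the genotypes overlap, as also in 47.8% of all genes tested. Lyz2 spans the widest gap, and the CKO libraries lie farthest from each other in Nat8l, Lyz1 and Kdr.

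Genes of neutrophils and their precursors stood higher after IL-4 in the libraries labelled CKO. Of 32 listed genes 26 were tested, 15 rose and none fell, with a median log2 fold change of 1.94 beside -0.01 over all genes. Of all genes tested 1.41% were called higher and 1.55% lower, which is also the background for the list counts after IL-4 below. The calcium-binding pair S100a8 and S100a9, which form calprotectin, lie near each other on chromosome 3 (90668978 to 90670035 and 90692632 to 90695721). S100a8 was at 7.38 and 6.76 CPM in WT and 43.1 and 41.3 CPM in CKO (2.58 ± 0.26, adjusted p = 0.000483), and S100a9 at 13 and 10.6 CPM and 64.7 and 59 CPM (2.39 ± 0.27, adjusted p = 0.00105). In each, the CKO libraries lay close together and far above WT.

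Granule proteins moved the same way at lower levels. Among those of late granules, Ngp was at 4.87 and 3.78 CPM in WT and 22.2 and 15.8 CPM in CKO (2.14 ± 0.24, adjusted p = 0.000759), and Lcn2, which binds bacterial iron carriers, at 1.98 and 1.62 CPM and 8.91 and 8.15 CPM (2.26 ± 0.21, adjusted p = 0.000174). Ltf (lactoferrin) was at 6.95 and 5.27 CPM and 26.8 and 20.8 CPM (1.97 ± 0.31, adjusted p = 0.00734), and its adjusted p was 0.11 without WT2 and 0.0617 without CKO1. The enzymes of the early, azurophil granules were present at a few CPM. Mpo, myeloperoxidase, was at 4.73 and 2.43 CPM and 12.2 and 13.9 CPM (1.90 ± 0.26, adjusted p = 0.00238). The serine proteases Elane (0.82 and 0.203 CPM against 2.57 and 2.84 CPM), Prtn3 (1.01 and 0.473 CPM against 2.98 and 4.07 CPM) and Ctsg (0.724 and 0.405 CPM against 2.6 and 2.9 CPM) rose by 2.52, 2.31 and 2.33 (adjusted p = 0.00545, 0.00196 and 0.00197). Ctsg missed the threshold without WT2 (adjusted p = 0.0565). In all 3 proteases both CKO libraries were above both WT libraries, and WT2 was the lowest.

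The tested members of the list summed to 1070.5 and 727 CPM in WT and to 1351 and 1109 CPM in CKO, and without Chil3, an abundant member that IL-4 induces, to 316 and 278 CPM and to 658 and 537 CPM. Of the 6 members left out by the filter, Ly6g, a surface marker of mature mouse neutrophils, had 2, 1, 6 and 1 counts in the 4 libraries and Stfa1 had 0, 0, 0 and 1. In bulk RNA, fewer cells of a type and less RNA per cell cannot be told apart, and the part of neutrophil precursors in these values was not tested. Leaving out the 4 libraries in turn (WT1, WT2, CKO1, CKO2, an order kept below) left 10, 7, 10 and 13 members called, all higher. Without cytokine 21 of the 26 were higher, beside 8.6% of all genes tested, and after IFN-γ 20, beside 10.4%. The medians were 2.05 and 2.36. When the library that stood apart was left out, the median without cytokine was 1.60.

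Markers of Ly6C monocytes and progenitors also rose. Of 24 tested members 11 were higher and none lower, with a median of 0.95, and without each library in turn 6, 2, 7 and 10 were. Ly6c2, part of the Ly6C antigen of inflammatory monocytes, was at 1.93 and 1.89 CPM in WT and 6.21 and 8.76 CPM in CKO (1.97 ± 0.30, adjusted p = 0.00443, 0.0665 without WT2), with reads that may be shared with its near copy Ly6c1. Ccr2, the receptor that draws monocytes from marrow, was at 14.1 and 14.3 CPM and 30.8 and 33 CPM (1.16 ± 0.20, adjusted p = 0.00878). Its libraries agreed within each genotype, yet it missed the threshold without WT1 (0.0878) and without WT2 (0.107). Cd34, a marker of progenitors, was at 3.81 and 4.7 CPM and 8.56 and 9.7 CPM (1.09 ± 0.16, adjusted p = 0.00286). Hp (haptoglobin) was at 0.579 and 0.372 CPM and 3.02 and 2.81 CPM (2.65 ± 0.34, adjusted p = 0.00156, 0.0504 without WT2). Plac8, a gene of monocytes and progenitors, was at 0.772 and 0.811 CPM and 2.84 and 3.4 CPM (1.97 ± 0.43, adjusted p = 0.0362), and its call was lost in each of the 4 fits without a library, at 0.19, 0.269, 0.124 and 0.0925.

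Adgre1, Cd68 and Csf1r, genes known from macrophages and chosen after their values were seen, were present at high levels in all 4 libraries. Adgre1, the F4/80 antigen, was at 899 and 843 CPM in WT and 1036 and 954 CPM in CKO, and Cd68, a glycoprotein of macrophage lysosomes, at 1069 and 1031 CPM and 1132 and 1023 CPM. Neither passed the test (log2 fold changes 0.19 and 0.04, adjusted p = 0.619 and 0.971). Csf1r, the receptor for the growth factor of these cells, was at 1038 and 995 CPM and 1707 and 1301 CPM (0.57 ± 0.14, adjusted p = 0.0591, and 0.0184 without CKO2). Of 30 tested macrophage identity genes 1 rose and 4 fell, with a median of 0.04, and without each library in turn the counts were 0 and 1, 0 and 3, 0 and 2, and 3 and 4. Of all genes tested 1.41% were called higher and 1.55% lower. The members summed to 38908 and 35797 CPM in WT and 26235 and 22597 CPM in CKO. Without Lyz2 the sums were 31241 and 29278 CPM and 26220 and 22581 CPM. The 4 that fell were Lyz2, Gpnmb, Fcgr1 and Itgam. Gpnmb, an abundant lysosomal glycoprotein, was at 13272 and 12609 CPM and 8054 and 6223 CPM (-0.86 ± 0.13, adjusted p = 0.00376, 0.0639 without WT1). Itgam (CD11b) was at 192 and 164 CPM and 112 and 109 CPM (-0.69 ± 0.13, adjusted p = 0.0127, 0.157, 0.091 and 0.0509 without WT1, CKO1 or CKO2), and Fcgr1, the high-affinity IgG receptor, at 9.8 and 10.2 CPM and 5.27 and 6.97 CPM (-0.70 ± 0.14, adjusted p = 0.0208, 0.107, 0.193 and 0.177 without WT1, WT2 or CKO1). Cebpa, the factor that rose, was at 74 and 68.7 CPM and 148 and 102 CPM (0.81 ± 0.15, adjusted p = 0.0142, 0.0981, 0.193 and 0.0989 without those same 3).

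Most markers of lymphocytes, of mast cells, basophils and eosinophils, of stroma and of erythroid cells had too few counts to test. Of 24 dendritic cell genes 18 were tested, with 1 higher, 0 lower and a median of 0.11, beside 2.96% of all genes called. That call did not hold without WT1, WT2 or CKO1. The tested genes summed to 2890 and 2734 CPM in WT and 3128 and 2794 CPM in CKO. Siglech, left untested, had 1, 4, 14 and 5 counts. Of 18 lymphocyte markers 4 were tested, 1 of them higher (Cd4) and 1 lower (Ighm), and the other 14 had at most 9 counts in any of the 4 libraries, with Cd3e and Ncr1 at 0 in all. Among mast cell, basophil and eosinophil markers 4 of 18 were tested and none passed, among stromal and endothelial markers 6 of 18 were tested, with Runx2 higher and Kdr lower, and among erythroid and megakaryocyte markers 5 of 16, with Pf4 lower. The untested members of the last 3 lists had at most 7 counts in any of the 4 libraries. The tested ones summed to 3.91 and 3.72 CPM in WT and 5.82 and 5.25 CPM in CKO for the mast cell list, to 297 and 313 CPM and 318 and 202 CPM for the stromal list, and to 3069 and 2908 CPM and 3015 and 3209 CPM for the erythroid list. Most of the last 2 sums came from Vwf, a clotting factor carrier of endothelium and platelets (272 and 283 CPM against 299.96 and 181 CPM, adjusted p = 0.748), and from Tfrc, the transferrin receptor of dividing and iron-handling cells (2902 and 2754 CPM against 2924 and 3117 CPM, adjusted p = 0.804). The part of other cell types in the results was not tested. Runx2, a transcription factor of bone-forming cells that some myeloid cells also express, was at 6.13 and 6.45 CPM and 12 and 11 CPM (0.86 ± 0.14, adjusted p = 0.00531, 0.0753 and 0.0671 without WT1 or WT2). Ighm, the heavy chain of IgM, was at 13.3 and 19.2 CPM and 7.84 and 9.87 CPM (-0.88 ± 0.19, adjusted p = 0.0324, 0.393 and 0.272 without WT2 or CKO1). Epx, Fcer1a, Lum and Gata1 had no count in the 4 libraries, which allows at most 3 counts in each group of 2 libraries. Cd4, which some mouse myeloid cells also express, was at 1.11 and 0.844 CPM and 5.55 and 2.55 CPM (2.06 ± 0.37, adjusted p = 0.0112), and its adjusted p was 0.0736, 0.192 and 0.0555 without WT1, WT2 or CKO1. Xist, the RNA of the inactive X chromosome, was at 1203 and 1148 CPM in WT and 1239 and 1161 CPM in CKO, which gives no sign that the genotypes differed in sex.

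The complement genes moved in opposite directions. All 3 chains of C1q, the molecule that starts the classical pathway and that macrophages themselves secrete, fell, while C3, the central component, rose. C1qa was at 67.6 and 56.5 CPM in WT and 10.6 and 5.57 CPM in CKO (-2.95 ± 0.32, adjusted p = 0.000978), C1qb at 342 and 339.9 CPM and 105 and 79.1 CPM (-1.89 ± 0.23, adjusted p = 0.00138) and C1qc at 281 and 301 CPM and 112 and 82.4 CPM (-1.58 ± 0.18, adjusted p = 0.000819). The 3 genes form 1 cluster on the minus strand of chromosome 4 (C1qb 136880129 to 136886187, C1qc 136889804 to 136893065, C1qa 136895917 to 136898803). In each, both CKO libraries were far below WT, and CKO2 was the lowest of the 4. C3 (chromosome 17, 57203970 to 57228136) was at 25.7 and 25.2 CPM and 98.9 and 92.5 CPM, 1.91 ± 0.11 on the log2 scale (adjusted p = 7.59e-06). With Itgam, a chain of a complement receptor, the list of 20 tested complement genes had 1 higher and 4 lower, and 1 and 3, 1 and 4, 1 and 3, and 1 and 4 without each library in turn.

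The C1q fall did not depend on IL-4 in direction. C1qa fell by 4.22 without cytokine and by 2.31 after IFN-γ, beside 2.95 after IL-4, and by 4.66 without cytokine when the library that stood apart was left out. The difference between the IL-4 and the untreated value did not pass the test for C1qa (adjusted p = 0.773), C1qb (0.152) or C1qc (0.773).

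The markers of alternative activation gave a divided picture, and its best-known genes did not pass the test. Arg1, the enzyme that turns arginine into ornithine, was at 2923 and 2399 CPM in WT and 1207 and 1842 CPM in CKO (-0.80 ± 0.43, adjusted p = 0.478). Retnla was at 248 and 259 CPM and 386 and 226 CPM (0.27 ± 0.31, adjusted p = 0.79), with the CKO libraries on either side of WT and a value of -0.17 without CKO1. Mrc1, the mannose receptor, was at 4515 and 4398 CPM and 3719 and 3786 CPM (-0.25 ± 0.09, adjusted p = 0.209), where the genotypes did not overlap but lay close. The lectins Mgl2 (586 and 622 CPM against 302 and 507 CPM) and Clec10a (136 and 168 CPM against 77.8 and 113 CPM) had log2 fold changes of -0.58 and -0.67 (adjusted p = 0.33 and 0.144). In both lectins CKO1 was the lowest of the 4.

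Of 38 tested alternative activation markers 5 rose and 1 fell, beside 1.41% of all genes called higher and 1.55% lower, and the median was 0.17. Fn1 and Tgm2, a transglutaminase that crosslinks proteins, were called in each fit without a library. Tgm2 was at 147 and 119 CPM in WT and 345 and 312 CPM in CKO (1.31 ± 0.13, adjusted p = 0.000238). Irf4, the interferon regulatory factor that IL-4 induces, was at 30.6 and 32.3 CPM and 60.01 and 53.3 CPM (0.85 ± 0.14, adjusted p = 0.00597). Il4i1, a secreted amino acid oxidase, was at 2.85 and 3.31 CPM and 9.85 and 7.18 CPM (1.46 ± 0.26, adjusted p = 0.0117), and Ear2, a ribonuclease of a family of near copies, at 1.69 and 1.52 CPM and 6.41 and 3.37 CPM (1.60 ± 0.31, adjusted p = 0.0159). These 3 missed the threshold without WT1, WT2 or CKO1, at 0.0871, 0.0753 and 0.0653 for Irf4, 0.139, 0.117 and 0.12 for Il4i1 and 0.115, 0.213 and 0.151 for Ear2. The counts of higher and lower members in the fits without each library were 2 and 1, 2 and 1, 2 and 1, and 6 and 1. Folr2, the folate receptor of tissue-resident macrophages, fell from 20.9 and 21 CPM to 7.14 and 6.56 CPM (-1.61 ± 0.13, adjusted p = 7.14e-05).

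In the IL-4 pathway itself 1 of 26 tested genes passed, beside 2.96% of all genes called in either direction, with a median of 0.14. Il4ra, the IL-4-binding receptor chain, was at 104 and 98.9 CPM in WT and 139 and 129 CPM in CKO (0.40 ± 0.09, adjusted p = 0.035), and its adjusted p was 0.172, 0.329 and 0.234 without WT1, WT2 or CKO1. Stat6 was at 203 and 202 CPM and 208 and 200.2 CPM (0.01 ± 0.09, adjusted p = 0.979). Transcription factors that act with STAT6 did not pass the test, with Pparg at 0.17, Klf4 at 0.16 and Egr2 at 0.15 on the log2 scale (adjusted p = 0.537, 0.574 and 0.804).

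**Figure D3:**
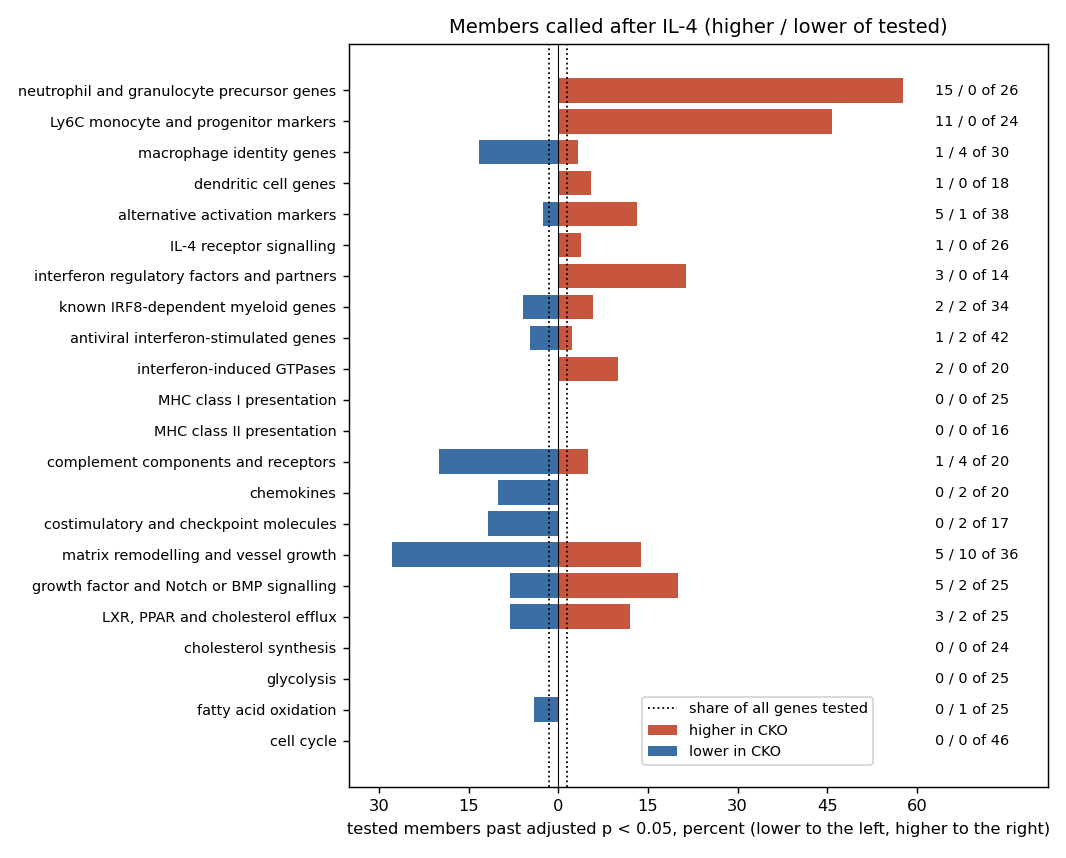
Share of the tested members of 22 gene lists called higher (red, to the right) or lower (blue, to the left) in the libraries labelled CKO after IL-4, in percent, with the counts printed at the right and dotted lines at the share over all genes, 1.41% higher and 1.55% lower. The neutrophil (15 of 26) and monocyte (11 of 24) lists reach furthest to the right and matrix remodelling (10 of 36) furthest to the left, and 5 lists show no call.

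Genes of matrix remodelling and vessel growth were called in both directions. Of 36 tested members 5 rose (Pdgfc, Thbs1, Fn1, Mmp9 and Mmp8) and 10 fell, and without each library in turn the counts were 2 and 3, 1 and 3, 2 and 3, and 5 and 8. The call of Mmp8 did not hold without WT1, WT2 or CKO1. The median of the list was -0.05, and of all genes tested 1.41% were called higher and 1.55% lower. Spp1, the secreted phosphoprotein osteopontin, fell from 2421 and 1900.4 CPM to 798 and 688 CPM (-1.54 ± 0.17, adjusted p = 0.000526). Mmp12, macrophage elastase, was at 4170.5 and 3372 CPM and 1922 and 1889.5 CPM (-0.98 ± 0.18, adjusted p = 0.0117), and Plau, urokinase, at 433 and 438 CPM and 135 and 199 CPM (-1.38 ± 0.25, adjusted p = 0.0142). Both genotypes expressed these genes well, and WT was above CKO in every library. The calls of Mmp12 and Plau held without 1 library only, WT2 for Mmp12 (adjusted p = 0.0432) and CKO2 for Plau (0.0116), with 0.141, 0.0995 and 0.0532 for Mmp12 in the other 3 fits and 0.0666, 0.0816 and 0.133 for Plau.

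Genes known from blood vessels were among those that fell. Col18a1, the collagen from which endostatin is cut, was at 21.1 and 20.2 CPM in WT and 3.4 and 4.95 CPM in CKO (-2.30 ± 0.25, adjusted p = 0.000682). Kdr, the receptor VEGFR2, was at 16.3 and 21.2 CPM and 3.67 and 7.68 CPM (-1.72 ± 0.29, adjusted p = 0.00867, 0.0868 without WT2), and the protease Adamts1 at 3.33 and 3.48 CPM and 0.52 and 0.908 CPM (-2.23 ± 0.29, adjusted p = 0.00156). Flrt2, a membrane protein that guides migrating cells, was at 261 and 251 CPM and 112 and 123 CPM (-1.12 ± 0.10, adjusted p = 9.12e-05). For Flrt2 the libraries of a genotype lay close together, while for Col18a1 CKO1 was below CKO2. Hbegf, a growth factor of the EGF family, was at 12.7 and 17.1 CPM and 4.06 and 6.83 CPM (-1.45 ± 0.34, adjusted p = 0.0441), with 0.11, 0.37 and 0.32 without WT1, WT2 or CKO1. Mmp9, a gelatinase also stored in neutrophil granules, was at 2.22 and 1.28 CPM and 5.65 and 3.55 CPM (1.42 ± 0.30, adjusted p = 0.0289) and had 0.0513, 0.363 and 0.235 in the same fits.

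Of 25 tested growth factor, Notch and bone morphogenetic protein (BMP) genes 5 rose and 2 fell, with a median of 0.34, and 3 and 1, 1 and 1, 3 and 1, and 5 and 3 without each library in turn. Of the BMP genes described here, Bmp2 and Smad6, which are on the list, and Smad9, which is not, were chosen after their values were seen. Bmp2, the ligand, was at 0.386 and 0.608 CPM in WT and 3.54 and 1.88 CPM in CKO (2.38 ± 0.41, adjusted p = 0.0095, 0.108, 0.0854 and 0.079 without WT1, WT2 or CKO1). Id3, described above, is a target of the pathway, and Smad6, which restrains it, was at 3.04 and 2.47 CPM and 8.25 and 7.74 CPM (1.55 ± 0.24, adjusted p = 0.00529, 0.107 without WT2). Smad9, a signal carrier of the pathway, had 0 and 0 counts in the WT libraries and 15 and 15 in the CKO libraries, at least 7.99-fold higher when 3 counts over the WT group are taken as the floor. Its adjusted p was 0.00812, and 0.0513 and 0.109 without WT1 or WT2. Jag1, a ligand of Notch receptors, was at 16.5 and 14.8 CPM and 3.71 and 6.59 CPM (-1.59 ± 0.21, adjusted p = 0.00165). Pdgfc, a growth factor of mesenchymal cells, was at 2.65 and 2.4 CPM and 11.4 and 8.41 CPM (1.97 ± 0.29, adjusted p = 0.00351, 0.0767 without WT2).

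Of 14 tested interferon regulatory factors and partners 3 rose, Irf8, Irf4 and Irf7 (1, 1, 1 and 4 without each library in turn), beside 1.41% of all genes called higher. Of 42 tested antiviral interferon-stimulated genes 1 rose and 2 fell, with a median of -0.05, beside 2.96% of all genes called in either direction. Irf7 was at 4.2 and 4.83 CPM in WT and 7.49 and 6.8 CPM in CKO (0.65 ± 0.14, adjusted p = 0.0245), Mx1, a GTPase against RNA viruses, at 2.94 and 3.21 CPM and 1.07 and 1.29 CPM (-1.37 ± 0.30, adjusted p = 0.035) and Ifitm3, which blocks viral entry, at 30.1 and 43.3 CPM and 15.4 and 15.6 CPM (-1.25 ± 0.28, adjusted p = 0.0399). Of these 3, only the call of Irf7 held in any fit without 1 library, that without CKO2 (0.0317), and the list then had 2 higher and none lower, against no member called in the other 3. Irf7 had 0.229, 0.116 and 0.177 in those, Mx1 ran from 0.0731 to 0.291 and Ifitm3 from 0.0524 to 0.315. No member of the class I (25 tested) or class II (16 tested) antigen presentation lists passed, with medians of 0.04 and 0.29. Without WT1, WT2, CKO1 or CKO2 the median was 0.01, 0.06, -0.09 and 0.15 for class I. For class II it was 0.18, 0.47, 0.19 and 0.40.

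Of 20 tested interferon-induced GTPases, which attack vacuoles of microbes inside cells, 2 were higher, and the median was 0.71. Of all genes tested 1.41% were called higher. Gbp7 was at 9.17 and 9.59 CPM in WT and 18.5 and 13.9 CPM in CKO (0.79 ± 0.18, adjusted p = 0.0388) and its relative Gbp8 at 0.676 and 0.642 CPM and 2.43 and 1.93 CPM (1.72 ± 0.31, adjusted p = 0.0111). Their calls held only without CKO2, with 0.271, 0.273 and 0.327 for Gbp7 and 0.0827, 0.16 and 0.0907 for Gbp8 without WT1, WT2 or CKO1. CKO1 was the highest of the 4 for both. The members summed to 204 and 195 CPM in WT and to 325 and 219.9 CPM in CKO, and without CKO2 the list had 8 calls, against 0 in the fits without another library.

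Among genes known to depend on IRF8 in myeloid cells 2 of 34 tested rose and 2 fell, with a median of 0.17. Of all genes tested 1.41% were called higher and 1.55% lower. Acp5, tartrate-resistant acid phosphatase, was at 8.2 and 6.52 CPM in WT and 19.1 and 11.5 CPM in CKO (1.06 ± 0.24, adjusted p = 0.0349, 0.128, 0.367 and 0.316 without WT1, WT2 or CKO1). Cdkn2b, an inhibitor of cell division, fell from 2.41 and 2.2 CPM to 0.277 and 0.615 CPM (-2.32 ± 0.31, adjusted p = 0.00182), and Pstpip1, which links receptors to the cytoskeleton, from 120.5 and 107 CPM to 69.3 and 78.2 CPM (-0.63 ± 0.11, adjusted p = 0.00852, 0.11 and 0.0985 without WT1 or CKO1). The list's counts without each library in turn were 0 and 1, 0 and 2, 1 and 1, and 4 and 3. Surface molecules that help activate T cells were lower where called. Cd40 fell from 11.6 and 11.7 CPM to 4.06 and 3.55 CPM (-1.62 ± 0.14, adjusted p = 9.72e-05) and Cd80 from 13.7 and 13.8 CPM to 7.32 and 9.46 CPM (-0.71 ± 0.16, adjusted p = 0.035, 0.194, 0.269 and 0.279 without WT1, WT2 or CKO1). They were 2 of the 17 tested costimulatory and checkpoint molecules, with 0 higher and 1, 1, 1 and 3 lower without each library in turn (and 1 higher in the last), and the 2 chemokines called of 20 also fell (0 and 1, 0 and 1, 0 and 1, and 1 and 2 higher and lower in those fits). Pf4 was at 164 and 152 CPM and 87.5 and 89 CPM (-0.84 ± 0.12, adjusted p = 0.00356, 0.0524 without WT1) and Ccl8 at 0.483 and 0.98 CPM and 0.104 and 0.147 CPM (-2.54 ± 0.53, adjusted p = 0.0342, 0.385, 0.227 and 0.0822 without WT2, CKO1 or CKO2).

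In lipid metabolism, 3 of 25 tested genes of the LXR and PPAR receptors and of cholesterol efflux rose, and 2 fell (2 and 1, 1 and 0, 2 and 1, and 3 and 1 without each library in turn). Nr1h3, the sterol receptor LXRα, was at 10.8 and 10.5 CPM in WT and 21.6 and 20.1 CPM in CKO (0.97 ± 0.14, adjusted p = 0.0023, 0.0511 without WT2). Fabp5, a fatty acid carrier, fell from 879 and 778 CPM to 457 and 301 CPM (-1.13 ± 0.19, adjusted p = 0.00867, 0.0908 and 0.0544 without WT1 or WT2). Scd1, which desaturates fatty acids, was at 2.61 and 5.88 CPM and 0.555 and 0.733 CPM (-2.73 ± 0.55, adjusted p = 0.0239), with WT libraries that lay apart, and it missed the threshold without WT2, CKO1 or CKO2 (0.273, 0.201 and 0.0672). No gene of cholesterol synthesis (24 tested, median -0.24), glycolysis (25 tested, median -0.29) or the cell cycle (46 tested, median -0.04) passed after IL-4. Without cytokine 21, 15 and 12 members of those lists were lower in the libraries labelled CKO, and 0, 0 and 2 higher. Of all genes tested 9.37% were lower and 8.6% higher in that condition. The list medians without cytokine were -0.75, -0.53 and -0.54, and -0.63, -0.39 and -0.20 without the library that stood apart. After IFN-γ 1, 13 and 20 were lower and none higher, beside 8.01% of all genes tested lower and 10.4% higher. A test of the genotype difference after IL-4 against that without cytokine called 0 members of each list. The difference was thus not shown to change between these conditions. After IL-4 the genotypes' libraries did not overlap in 22, 22 and 15 members, beside 47.8% of all genes. Gclm, which limits glutathione synthesis, rose from 183 and 173 CPM to 318 and 294 CPM (0.78 ± 0.09, adjusted p = 0.000759).

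Among 7 tested genes known to differ between substrains of laboratory mice, Wdfy1 and Nnt rose and Glo1 fell, beside 2.96% of all genes called. Nnt, a mitochondrial enzyme of which C57BL/6J carries a deletion, was at 37.7 and 38.4 CPM in WT and 69.9 and 68.5 CPM in CKO (0.86 ± 0.09, adjusted p = 0.00028). Wdfy1 was at 16.7 and 17.1 CPM and 57.8 and 60.5 CPM (1.80 ± 0.11, adjusted p = 8.36e-06), and Glo1, which detoxifies methylglyoxal, at 94.1 and 93 CPM and 37.6 and 41.1 CPM (-1.25 ± 0.09, adjusted p = 3.2e-05). Each of the 3 had the same direction without cytokine (1.05, 1.63 and -1.23) and after IFN-γ (0.48, 1.49 and -1.34). The part of strain background in the genotype difference was not tested.

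Promoter sequences were read for the genes called. IRF8 and STAT6 are known to bind short motifs in regulatory DNA. Sequences are RefSeq's, on GRCm38.p6, from 250 bases before to 50 after the start, and 9864 of the tested genes had at least 1. The composite site of ETS and IRF factors, GGAA and GAAA 2 bases apart on either strand, was in 5 of 231 promoters of genes called higher (2.16%) and 5 of 219 of genes called lower (2.28%), against 2.48% of promoters of genes tested and 2.72% of all promoters. The interferon-stimulated response element, a pair of GAAA 2 bases apart on either strand, which differs from the composite site in 1 base and can overlap it, was in 3.46% (8) and 5.02% (11), against 3.35% and 3.44%. The spacing that STAT6 prefers, TTC and GAA 4 bases apart, was in 5.63% (13) and 6.85% (15), against 5.62% and 6.95%. The difference in shares rests on few promoters and was not tested, and a match describes letters, not binding. The stretches of 60 bases around the match for a gene that fell, an abundant gene that fell and a GTPase that rose are shown, with the match in capitals, on the strand of the gene. The Folr2 stretch, with the composite site, is at chr7:101857292-101857351 (minus strand). That of Spp1 is at chr5:104434929-104434988 (plus) and that of Gbp7 at chr3:142530258-142530317 (plus), and the last 2 hold the response element on the opposite strand. The other promoter of Folr2 (chr7:101845282-101845581) and the other of Spp1 (chr5:104435942-104436241) held neither motif.
Folr2: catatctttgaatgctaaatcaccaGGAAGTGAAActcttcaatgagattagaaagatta
Spp1: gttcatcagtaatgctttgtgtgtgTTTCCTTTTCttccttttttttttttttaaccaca
Gbp7: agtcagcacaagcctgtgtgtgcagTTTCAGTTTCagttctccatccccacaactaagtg

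Genes called after IL-4 were for the most part also called in the same direction in the other genotype comparisons, which use other libraries but the same estimate of spread. Of the 229 higher genes 201 (87.8%) were also higher without cytokine, where they were 14.3% of 1401, and 175 (76.4%) after IFN-γ, 10.4% of 1690. Of the 253 lower genes 206 (81.4%) were lower without cytokine, 13.5% of 1526, and 147 (58.1%) after IFN-γ, 11.3% of 1305. In both other conditions 166 and 133 were called the same way, and in neither 19 and 33. Opposite calls were few, 3 and 0 without cytokine and 2 and 13 after IFN-γ. When the library that stood apart was left out of the untreated comparison, 166 of the 229 (72.5%) were also higher, 35.7% of 465, and 161 of the 253 (63.6%) also lower, 37.5% of 429. Il4i1, Ear2 and Il4ra were among the genes called after IL-4 alone. Their differences were 0.38, 1.96 and 0.23 without cytokine, and the IL-4 value was not shown to differ from these (adjusted p of the difference 0.773, 0.937 and 0.785).

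A test of the difference itself, the genotype difference after IL-4 minus that without cytokine, called 6 of 16292 genes (0.0368%), 4 more positive (0.0246%) and 2 more negative (0.0123%) after IL-4. Acod1, which makes itaconate, had opposite signs. It was at 8.25 and 7.81 CPM in WT and 4.25 and 3.63 CPM in CKO without cytokine (-1.03 ± 0.15), and at 2.12 and 1.76 CPM and 5.17 and 7.09 CPM after IL-4 (1.68 ± 0.17), a difference of 2.71 ± 0.23 (adjusted p = 0.00136). Prps1, which makes the sugar phosphate for nucleotide synthesis, turned in the same way. Its levels were 14.4 and 14.5 CPM and 7.59 and 10.6 CPM without cytokine (-0.67 ± 0.17) and 29.8 and 30.6 CPM and 73.3 and 62.1 CPM after IL-4 (1.17 ± 0.16), a difference of 1.83 ± 0.23 (adjusted p = 0.0183). Both were lower in the libraries labelled CKO without cytokine and higher with IL-4, although without the library that stood apart the untreated value of Prps1 was -0.44 and missed the threshold (adjusted p = 0.153). With that library left out, the difference between the conditions was 2.82 for Acod1, 1.62 for Prps1, 1.26 for Flrt2 and 0.98 for Angptl2. It was -2.68 for Chil3 and -1.17 for Ermard.

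Flrt2 and Angptl2, a secreted angiopoietin-like protein, were less reduced after IL-4 than without cytokine. Flrt2 was at 49 and 43.3 CPM and 9.18 and 8.88 CPM without cytokine, so that its difference went from -2.35 to -1.12 (adjusted p = 0.0137). Angptl2 went from 119.6 and 118 CPM in WT and 38 and 47.1 CPM in CKO to 435 and 441 CPM and 331 and 352 CPM, its difference from -1.48 to -0.36 (adjusted p = 0.0487). Ermard was at 46.9 and 43.1 CPM and 141 and 106 CPM without cytokine and at 34.5 and 32.8 CPM and 33.6 and 36.9 CPM after IL-4 (difference -1.39 ± 0.20, adjusted p = 0.0487), where the genotypes overlapped. In the fit of the 8 libraries compared alone none of the 6 passed, with adjusted p = 0.064 for Acod1, Prps1 and Flrt2 and 0.138 for Chil3, which is described next. Without 1 library of the comparison the count ran from 1 (without the first WT library without cytokine) to 371 (without the second CKO library without cytokine), and Acod1 was called in all 8 such fits. Prps1 was lost without any of the 4 WT libraries and without CKO1 with IL-4 (adjusted p = 0.0788 to 0.228), and Flrt2 without either WT library with IL-4 or the first WT library without cytokine (0.109 to 0.12). Angptl2 and Ermard were lost in 7 of the 8 fits, at 0.0703 to 0.326 and 0.0656 to 0.311.

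**Figure D4:**
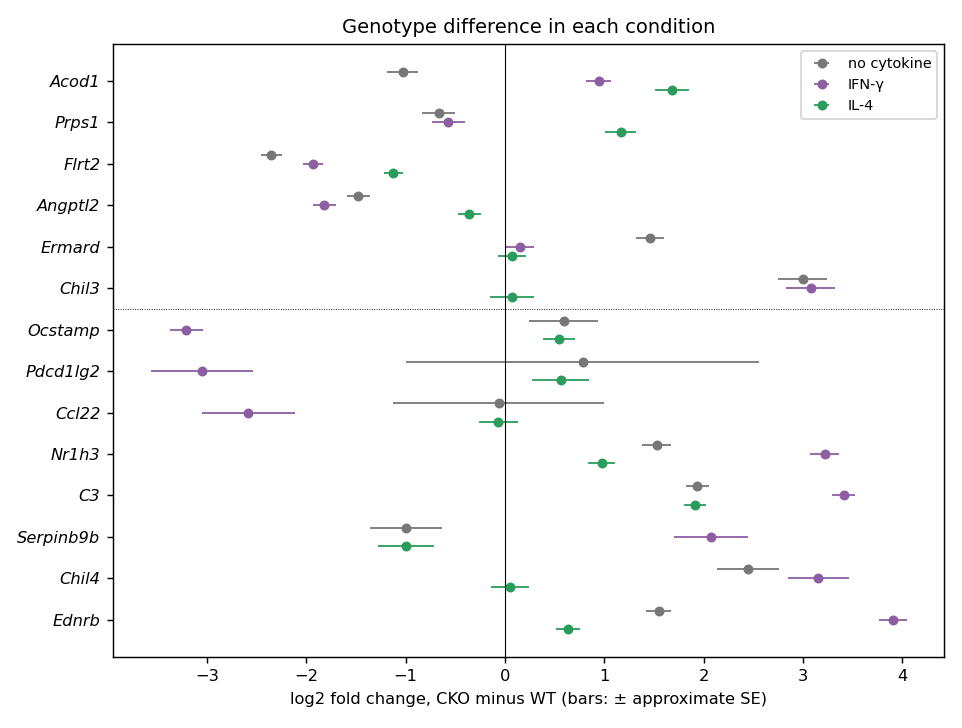
Genotype difference (log2 fold change, CKO minus WT, horizontal axis) without cytokine (grey), after IFN-γ (purple) and after IL-4 (green) for 14 genes, with bars of ± 1 approximate SE. Above the dotted line are the 6 genes whose difference after IL-4 departed from that without cytokine, and below it are genes whose difference after IL-4 departed from that after IFN-γ, with Ocstamp, Pdcd1lg2 and Ccl22 far to the left after IFN-γ alone.

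Chil3, a chitinase-like protein secreted by IL-4-treated macrophages, had a smaller genotype difference with IL-4 than in either other condition. Without cytokine it was at 12.4 and 11 CPM in WT and 108 and 78.8 CPM in CKO (2.995 ± 0.25, adjusted p = 5.23e-05), and after IFN-γ at 13.9 and 15.1 CPM and 111 and 134 CPM (3.08 ± 0.25, adjusted p = 1.88e-05). After IL-4 it was at 754 and 449 CPM and 693 and 571 CPM, so that the genotypes overlapped at a level above either (0.07 ± 0.22, adjusted p = 0.944). The genotype difference after IL-4 minus that without cytokine was -2.92 ± 0.33 (adjusted p = 0.0165), and minus that after IFN-γ it was -3.004 ± 0.33 (adjusted p = 0.00121). Without the first CKO library without cytokine, the one that stood apart, the former was -2.68 (adjusted p = 0.0555), and it also missed the threshold without either WT library without cytokine (0.118 and 0.168) and without CKO2 with IL-4 (0.0781).

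Its neighbour Chil4 moved with it at lower levels, from 0.594 and 0.614 CPM in WT and 3.68 and 3 CPM in CKO without cytokine (2.45 ± 0.31) to 34.8 and 22.8 CPM and 33.9 and 25.6 CPM after IL-4 (0.05 ± 0.19). The change of its genotype difference was -2.40 ± 0.37 against no cytokine (adjusted p = 0.0673) and -3.10 ± 0.37 against IFN-γ (adjusted p = 0.00139). The genes are close copies on the minus strand of chromosome 3 (Chil3 106147554 to 106167564, Chil4 106201490 to 106219507), and reads may be shared between them, so the 2 sets of values are not independent. Their promoters, shown because the genes moved together, also align. Over 221 aligned bases 201 were identical (91%). The stretches are Chil3 at chr3:106167565-106167786 and Chil4 at chr3:106219508-106219729, both minus strand and before the start, with capitals for bases that differ or have no partner.
Chil3: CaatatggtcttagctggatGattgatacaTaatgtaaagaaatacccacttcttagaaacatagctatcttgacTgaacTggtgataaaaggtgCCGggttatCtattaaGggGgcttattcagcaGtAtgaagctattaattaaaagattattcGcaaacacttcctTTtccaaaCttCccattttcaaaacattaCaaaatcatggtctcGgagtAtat
Chil4: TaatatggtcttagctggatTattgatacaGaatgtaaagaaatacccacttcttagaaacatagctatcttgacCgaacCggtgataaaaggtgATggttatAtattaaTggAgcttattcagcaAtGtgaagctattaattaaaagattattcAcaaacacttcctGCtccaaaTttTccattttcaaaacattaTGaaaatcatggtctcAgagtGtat

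**Figure D5:**
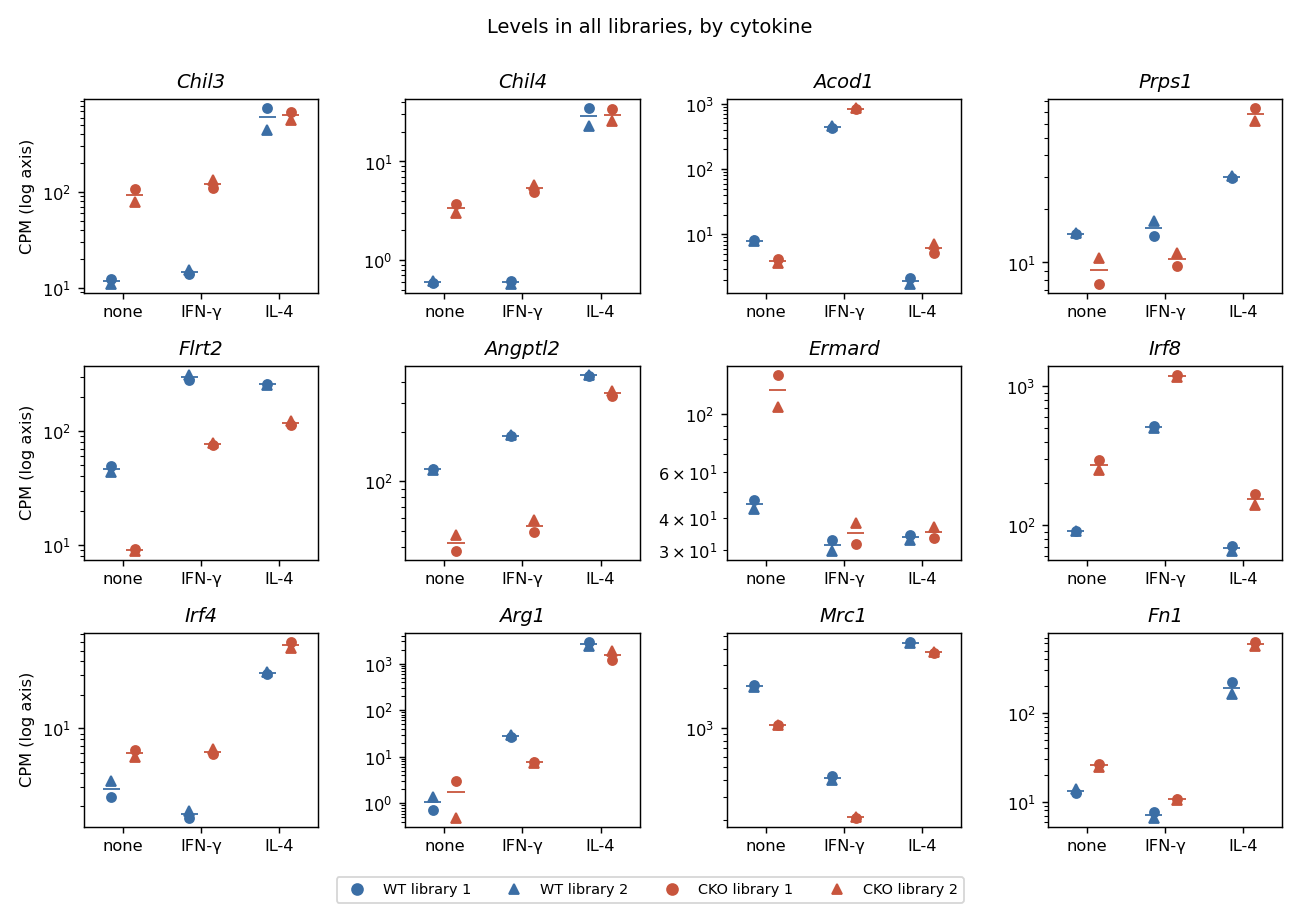
Level of 12 genes in all 12 libraries in CPM (vertical log axes, each with its own range) by cytokine, WT in blue and CKO in red, circles for library 1 and triangles for library 2, with bars at the group means. Chil3 and Chil4 differ between the genotypes without cytokine and after IFN-γ and overlap after IL-4, Irf8 is above WT in the CKO libraries of each condition, and Fn1 reaches its highest levels in the CKO libraries with IL-4.

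Against IFN-γ, the genotype difference after IL-4 departed in 495 genes (3.04%), 147 more positive (0.902%) and 348 more negative (2.14%) after IL-4. Several genes of alternative activation were among them. The genotype difference of Mrc1 was -0.99 ± 0.09 after IFN-γ and -0.25 ± 0.09 after IL-4 (adjusted p of the difference 0.00938). Pdcd1lg2, the checkpoint ligand PD-L2, was at 2.07 and 1.73 CPM in WT and 0.226 and 0.223 CPM in CKO after IFN-γ, and at 5.98 and 6.86 CPM and 12.4 and 6.62 CPM after IL-4, a change of 3.61 ± 0.59 (adjusted p = 0.00805). Ocstamp, needed for the fusion of osteoclasts and macrophages, was at 105 and 97.9 CPM and 11.4 and 10.6 CPM after IFN-γ and at 9.41 and 10.03 CPM and 14.4 and 13.9 CPM after IL-4, a change of 3.75 ± 0.23 (adjusted p = 1.68e-05). For both genes the IFN-γ libraries of the genotypes were far apart, and those with IL-4 did not pass the test.

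In the other direction, Ednrb, an endothelin receptor, differed by 0.63 ± 0.12 after IL-4 (248 and 280.4 CPM against 401 and 419 CPM, adjusted p = 0.0165, 0.191, 0.0808 and 0.079 without WT1, WT2 or CKO1) and by 3.90 ± 0.14 after IFN-γ (12.9 and 14.6 CPM against 207 and 206 CPM), a change of -3.27 ± 0.18 (adjusted p = 1.02e-05). Spp1 had its fall after IL-4 and a difference of -0.23 ± 0.16 after IFN-γ (adjusted p = 0.36), a change of -1.31 ± 0.23 (adjusted p = 0.0118). Of the 42 antiviral genes 29 were higher in the libraries labelled CKO after IFN-γ, beside 10.4% of all genes tested, with a median of 0.81. After IL-4 1 was higher, beside 1.41% of all genes. Between the 2 conditions 14 of the 42 departed, beside 3.04% of all genes. Without 1 library of the comparison 131 (WT1 with IL-4) to 422 genes departed between the conditions. The calls of Ocstamp and Ednrb held in each of these fits, that of Pdcd1lg2 was lost without either CKO library with IFN-γ (adjusted p = 0.0556 and 0.0634), that of Mrc1 without either WT library with IL-4 (0.0589 and 0.0661) or either CKO library with IFN-γ (0.0629 and 0.0568), and that of Spp1 without WT1 with IL-4 (0.0976), CKO2 with IL-4 (0.0521) or CKO2 with IFN-γ (0.0889).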

How the data were processed

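RNA of 12 libraries was counted, and the 4 with IL-4 were compared. The authors deposited unnormalized counts of reads for each gene. Per the submitters' processing notes, HTSeq 0.6.1, Picard 1.97, TopHat2 2.0.13 and CASAVA 1.8.2 were used, and the builds mm10 and GRCh38 are named with no role; the gene identifiers are mouse. The strand setting and annotation release of the counting are not given, so overlapping genes on opposite strands are uncertain. Of 48440 genes, 22932 had no count, and 16292 passed edgeR's filterByExpr over 6 groups. Symbols came from the table and positions from GENCODE M21 (GRCm38), where 48058 identifiers matched without version.

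edgeR 4.0.16 (R 4.3.3, limma 3.58.1) fitted 6 group means to all 12 libraries (TMM, robust quasi-likelihood F test, 6 residual degrees of freedom, Benjamini-Hochberg at 0.05 within each contrast). Dividing the size of a log2 fold change by the root of its F gives the approximate SE. Depth was 21287725 to 32717379 counts, and a floor of 3 counts over a group covers counting error only. Counts of this comparison were simulated over 16292 genes, with changes planted in 200 genes and no other difference between groups. The 200 were drawn from genes that were not at the lowest levels. Of the planted changes 72% of 2-fold and 97% of 4-fold ones were recovered, with 8 false among 177 calls. Recovery in the genes of lowest level was not measured.

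Named genes were Irf8 and Lyz2, the 12 largest increases and decreases among called genes with a proper symbol, no overlap between the genotypes' libraries and a log2 CPM that averaged 3 or more, up to 3 called members a list (8 of alternative activation) and the 3 most positive and negative of each of 2 differences between conditions. Another 38 genes, among them Mpo, Elane, Prtn3, Ctsg, Ly6c2, Plac8, Arg1, Retnla, Mrc1, Mgl2, Clec10a, Egr2, Klf4, Pparg, Stat6, Adgre1, Cd68, Csf1r, Cebpa, Mmp12, Mmp9, Hbegf, Plau, Bmp2, Smad6, Smad9, Scd1, Acod1, Enpp5 and Xist, and the promoters printed, were chosen after their values were seen. Members and the 39 lists were chosen with earlier results of these data known. Lists are described by counts and medians, with no test. Alternatives were DESeq2 1.42.0, its size factors, other filters, the 4 libraries alone, the library number as a block, a fold of 2 and leaving out libraries.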

Additional observations from a re-analysis of the deposited data

Results flagged for a closer look

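These genes were picked out because the genotype difference after IL-4 departed from that in another condition by edgeR's test of the difference itself; the value in parentheses is the log2 difference, IL-4 minus the other condition, and positive values mean that the difference of CKO from WT was more positive after IL-4. Against both conditions the calls were also made without each of the 8 libraries compared in turn. With 2 libraries a group, no library was tested for lying far from its group.

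Against no cytokine the difference was more positive after IL-4 for Acod1 (2.71, adjusted p = 0.00136), Prps1 (1.83, adjusted p = 0.0183), Flrt2 (1.23, adjusted p = 0.0137) and Angptl2 (1.12, adjusted p = 0.0487), and more negative for Chil3 (-2.92, adjusted p = 0.0165) and Ermard (-1.39, adjusted p = 0.0487). Against IFN-γ it was more positive after IL-4 for Ocstamp (3.75, adjusted p = 1.68e-05), Pdcd1lg2 (3.61, adjusted p = 0.00805), Ccl22 (2.52, adjusted p = 0.023), Pdgfc (1.83, adjusted p = 0.0299), Abca9 (1.75, adjusted p = 0.03), Prps1 (1.74, adjusted p = 0.00252), Slc7a2 (1.70, adjusted p = 0.000529), Angptl2 (1.46, adjusted p = 0.000834), Egr2 (1.34, adjusted p = 0.0451), Ccr2 (1.16, adjusted p = 0.0444), Fn1 (1.06, adjusted p = 0.0199), Flrt2 (0.81, adjusted p = 0.00813) and Mrc1 (0.74, adjusted p = 0.00938). The most negative values against IFN-γ were those of Ednrb (-3.27, adjusted p = 1.02e-05), Chil4 (-3.10, adjusted p = 0.00139), Serpinb9b (-3.07, adjusted p = 0.0057), Chil3 (-3.004, adjusted p = 0.00121), Fpr1 (-2.54, adjusted p = 0.0377), Hp (-2.40, adjusted p = 0.0334), Src (-2.39, adjusted p = 0.0195) and Nr1h3 (-2.25, adjusted p = 0.00024). Next came Col18a1 (-1.86, adjusted p = 0.0158), Klf4 (-1.86, adjusted p = 0.000266), Ifitm3 (-1.81, adjusted p = 0.0323), C3 (-1.50, adjusted p = 0.000493), Itgam (-1.42, adjusted p = 0.00192), Spp1 (-1.31, adjusted p = 0.0118), Ctsl (-1.14, adjusted p = 0.00295) and Gch1 (-1.07, adjusted p = 0.0113). Also more negative after IL-4 were Irf4 (-1.02, adjusted p = 0.0368), Irf7 (-1.01, adjusted p = 0.0105), Sel1l3 (-0.89, adjusted p = 0.0283), Pstpip1 (-0.80, adjusted p = 0.0149) and Colec12 (-0.69, adjusted p = 0.0392).

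In the 8 fits that each leave out 1 library, the departure from no cytokine was called in all for Acod1 and was lost in 3 for Flrt2, 4 for Chil3, 5 for Prps1 and 7 each for Angptl2 and Ermard, with adjusted p up to 0.12, 0.168, 0.228, 0.326 and 0.311. The departure from IFN-γ was called in all 8 for Angptl2, C3, Chil3, Chil4, Ctsl, Ednrb, Itgam, Klf4, Nr1h3, Ocstamp, Prps1, Serpinb9b and Slc7a2. It was lost in 7 for Abca9, Ccl22, Ccr2, Colec12, Egr2, Hp, Irf4, Pdgfc and Sel1l3, whose highest adjusted p ran from 0.152 (Pdgfc) to 0.259 (Hp), in 6 for Fpr1 and Ifitm3 (up to 0.248 and 0.129), in 5 for Fn1 and Src (0.0962 and 0.106) and in 4 for Col18a1, Gch1, Mrc1 and Pstpip1 (0.0755, 0.0732, 0.0661 and 0.11). For Irf7 and Spp1 it was lost in 3 (0.105 and 0.0976), for Pdcd1lg2 in 2 (0.0634) and for Flrt2 in 1 (0.0531).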

How the results depend on the processing

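None of the 482 genes called after IL-4 changed sign under the alternatives run. Of 27 named genes that were not called 8 did, among them Retnla (-0.17) and Egr2 (-0.12) without CKO1 and Chil3 (-0.24) and Chil4 (-0.22) without WT2. The medians of 13 of 39 lists also changed sign, without CKO1 those of the cell cycle (-0.04 to 0.21), IRF8-dependent genes (0.17 to -0.03) and LXR, PPAR and cholesterol efflux (0.11 to -0.04) among them. The 482 calls after IL-4 (229 higher, 253 lower) became 680 with DESeq2, where higher calls outnumbered lower ones (345 and 335), 472 with DESeq2 size factors and 358 with the 4 libraries alone, of which 460, 470 and 316 were among the 482. No filter on low counts gave 1129 (640 higher, 489 lower), a mean CPM of at least 5 gave 290 (149 and 141), and a fold of at least 2 beside the adjusted p gave 264 (136 and 128). Leaving out 1 compared library gave 128 to 633 calls (60 to 362 higher, 68 to 271 lower), and leaving out the first CKO library without cytokine gave 671 (334 and 337).

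The departures from no cytokine were 6, and 42 with DESeq2, 291 with no filter, 5 at a mean CPM of 5 and 0 with only the groups compared, and ran from 1 to 371 without 1 library, 371 being the fit in which the CKO group without cytokine is its first library alone. Fits that leave a group with 1 library take its spread from the other groups. The departures from IFN-γ were 495, and 736 with DESeq2, 1220 with no filter, 303 with a fold of at least 2 and 131 to 797 without 1 library, 797 being the fit without the first CKO library without cytokine, which is in neither condition.

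The libraries of both genotypes carry the numbers 1 and 2, and the labels do not say what a number stands for. The deviations of same-numbered IL-4 libraries correlated at 0.073 across genes between the genotypes. Within a genotype those of IL-4 and untreated libraries correlated at 0.135 (WT) and 0.381 (CKO) and those of IL-4 and IFN-γ libraries at 0.1 and 0.218, a hint from the data and not the design, so the samples are taken to share only a number. With the library number as a replicate block, 860 genes were called after IL-4 (416 higher, 444 lower), all 482 among them, with 26 departures from no cytokine and 851 from IFN-γ. A replicate block within each genotype, added after the data were seen, bears only on the departures and gave 85 from no cytokine and 1254 from IFN-γ. Without cytokine 2927 calls became 894 (465 higher, 429 lower) without the first CKO library, also an added alternative. Of the 98 named genes called, 47, 53, 45 and 15 lost their call without WT1, WT2, CKO1 and CKO2 in turn, 18 with the 4 libraries alone and none with DESeq2, which gave no adjusted p for Smad9. Under the stricter filter some lists had no tested member and gave no value. With 2 libraries a group, a 2-fold change of a gene at a few CPM can be missed, and a count of 0 allows 3 counts over a group.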

Other observations

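Genes of macrophage fusion and of osteoclasts, which are the fused bone-resorbing relatives of macrophages, were called in both directions after IL-4. Of 22 tested members 4 were higher in the libraries labelled CKO and 1 lower, with a median log2 fold change of 0.08. Of all genes tested 1.41% were called higher and 1.55% lower. Clcn7, a chloride transporter of the bone-resorbing surface and of lysosomes, was at 112 and 121 CPM in WT and 201 and 178 CPM in CKO (0.70 ± 0.10, adjusted p = 0.00193), with both CKO libraries above both WT libraries. Itgav, an integrin chain, was at 195 and 180.0 CPM and 244 and 268 CPM (0.45 ± 0.09, adjusted p = 0.0247), and missed the threshold without any 1 of the 4 libraries (0.109, 0.284, 0.0617 and 0.0728). Src, a kinase that osteoclasts need, was at 2.27 and 1.59 CPM and 0.555 and 0.791 CPM (-1.48 ± 0.31, adjusted p = 0.0267), and 0.242, 0.0762 and 0.224 without WT1, WT2 or CKO1. The counts of higher and lower members without WT1, WT2, CKO1 and CKO2 were 1 and 0, 1 and 0, 1 and 0, and 3 and 1.

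Receptors for apoptotic cells and modified lipids gave 2 higher and 3 lower of 23 tested, beside 1.41% and 1.55% of all genes. Colec12, a scavenger receptor with a collagen-like stalk, was at 92.5 and 92.4 CPM in WT and 55 and 58.3 CPM in CKO (-0.71 ± 0.11, adjusted p = 0.00515), and Anxa1, a phospholipid-binding protein that dampens inflammation, at 832 and 811 CPM and 548 and 508 CPM (-0.64 ± 0.13, adjusted p = 0.0197). Both were lower in each CKO library than in either WT library. Colec12 kept its call without CKO2 (0.0186) and had 0.0556, 0.0665 and 0.0617 without the others in turn, and Anxa1 lost its call in all 4 fits (0.174, 0.173, 0.0941 and 0.0835). The list's counts without each library in turn were 0 and 0, 0 and 0, 0 and 0, and 2 and 1.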
